A study of Homo sapiens with 6 samples.

Results

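The 10 genes described here are the transcription factors SNAI1, SNAI2, TWIST1, TWIST2, ZEB1, ZEB2, PRRX1 and PRRX2, together with VIM (vimentin) and FN1 (fibronectin). They were listed by name, though with earlier results of these data known, and all 10 were found among the 28181 gene identifiers of the expression tables. RNA was sequenced from UE7T-9 SHC4 and UE7T-9 Cont, with 3 libraries in each group. UE7T-9 is an MSC line from human bone marrow, immortalized by telomerase reverse transcriptase and the E7 protein of a papillomavirus, and was grown in DMEM. UE7T-9 SHC4 carries a lentiviral SHC4 coding sequence under a CMV promoter with puromycin resistance. UE7T-9 Cont carries the same kind of vector with GFP by the methods of the study, while the sample labels call it Nontarget with genotype WT. SHC4 encodes an adaptor protein of receptor tyrosine kinases. The comparison asks which transcripts differ once SHC4 is overexpressed in a line that was studied for its migration. The labels number 3 biological replicates per group, and whether they were separate infections or cultures of 1 infected line was not given, so p-values measure only the spread between these libraries.

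In epithelial-mesenchymal transition (EMT), epithelial cells lose their junctions and take on a migratory, mesenchymal form. SNAI, ZEB and TWIST proteins bind E-box motifs in DNA and repress genes such as CDH1, the gene of E-cadherin, while PRRX factors are homeodomain proteins of limb and skeletal mesenchyme. MSCs are mesenchymal to begin with, and vimentin filaments and a fibronectin matrix are ordinary features of these cells.

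The recovered depth was 18144993 to 27721397 reads per library, and 3 reads corresponded to a normalized count of 2.50 to 3.53. A normalized count is the number of reads of a gene divided by 1 size factor per library. SHC4 had 56.5, 157 and 130 normalized counts in the Cont libraries (replicates 1, 2 and 3) and 134870, 119170 and 155010 in the SHC4 libraries, so every library matched its label. Values of single libraries are given in this order throughout. The MSC surface markers NT5E, THY1 and ENG summed to 27753 to 31176 in UE7T-9 Cont and to 28127 to 30215 in UE7T-9 SHC4. Within these sums the markers moved in unlike directions. The means in UE7T-9 Cont and UE7T-9 SHC4 were 18701 and 14252 for NT5E, 4322.5 and 8308.9 for THY1 and 6245.8 and 6768.7 for ENG. The haematopoietic markers (6 of 7 measured) summed to 228 to 418 and 279 to 349, and PTPRC, the pan-leukocyte marker, did not exceed 6.82. The 4 endothelial markers summed to 58.0 to 78.9 and 49.2 to 96.7, with CDH5 at or below 1.18, and the epithelial markers (4 of 5 measured) to 14.8 to 27.3 and 7.49 to 33.4, with EPCAM at or below 4.92. UE7T-9 Cont replicate 1 was closer to the UE7T-9 SHC4 libraries than to its own group. Across genes, its log2 values had a Pearson correlation of 0.977 with UE7T-9 SHC4 replicate 1, against 0.971 and 0.967 with UE7T-9 Cont replicates 2 and 3. It was not the only control with low values. UE7T-9 Cont replicate 3 had 0.968, 0.969 and 0.968 with the UE7T-9 SHC4 libraries, and was closest to UE7T-9 Cont replicate 2. Results that rest on UE7T-9 Cont replicate 1 are given with and without it.

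Stretches upstream of FN1, TWIST2 and PRRX2 are shown because FN1 and PRRX2 varied most among the UE7T-9 Cont libraries and TWIST2 was the gene whose groups did not overlap. RefSeq promoter windows on GRCh38.p14 were matched for 7 of the 10 genes, and not for SNAI1, SNAI2 or TWIST1. Of each window of 250 bases before the RefSeq start, the part without annotated exons is printed 5′ to 3′ on the strand of the gene. FN1 is chr2:215436173-215436252 on the minus strand, TWIST2 is chr2:238847835-238848031 on the plus strand and PRRX2 is chr9:129665397-129665640 on the plus strand. Capitals mark matches to CCAAT, its reverse complement ATTGG, and TGACGTCA.
FN1: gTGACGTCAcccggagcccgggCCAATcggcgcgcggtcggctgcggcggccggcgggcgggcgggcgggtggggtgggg
TWIST2: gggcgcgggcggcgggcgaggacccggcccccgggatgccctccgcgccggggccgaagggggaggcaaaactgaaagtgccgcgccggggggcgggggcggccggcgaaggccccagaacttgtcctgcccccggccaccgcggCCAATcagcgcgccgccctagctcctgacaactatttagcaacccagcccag
PRRX2: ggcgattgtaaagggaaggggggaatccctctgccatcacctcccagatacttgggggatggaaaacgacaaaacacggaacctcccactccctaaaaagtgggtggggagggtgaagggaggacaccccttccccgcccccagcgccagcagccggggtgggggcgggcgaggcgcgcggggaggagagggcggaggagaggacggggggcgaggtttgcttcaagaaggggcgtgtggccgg
FN1 held TGACGTCA, the letters of the cAMP response element, 183 bases before its start, and CCAAT 162 bases before it. TWIST2 held CCAAT 105 bases before its start, and the window of PRRX2 held none of the motifs searched. Of 35116 windows of this length, 1.65% held TGACGTCA and 32% held CCAAT or ATTGG on either strand. The E-box CANNTG was found in windows of 2 of the 7 genes, ZEB1 and ZEB2, and in 61.8% of all windows. Its form CAGGTG, or CACCTG when read from the opposite strand, which is bound by SNAI and ZEB proteins and is one of the CANNTG matches, was found among the 7 only for ZEB1, in 2 of its 7 windows, against 17.5% of all windows. These matches describe letters and not binding.

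None of the 10 genes passed the test between the groups. limma was fitted on log2(normalized count + 1) over 23040 genes, those whose mean reached 1, and all 10 were among them. Adjusted p-values are by Benjamini-Hochberg over the whole set. Calls required an adjusted p under 0.05 and a log2 difference of more than 1 in either direction. The fold change is on the log2(value + 1) scale, which understates the change of genes with few reads. Over all genes, 0.0521% were called higher in UE7T-9 SHC4 and 0.00868% were called lower. At an unadjusted p below 0.05, 2 of the 10 genes passed, TWIST1 and TWIST2, both higher, beside 14.4% of all genes in either direction. The groups did not overlap for 1 of the 10, with UE7T-9 SHC4 above, where 9.13% of all genes had that pattern. For none of the 10 was UE7T-9 SHC4 wholly below, where 10.2% of all genes had that pattern. DESeq2 and edgeR on the recovered reads gave no adjusted p below 0.05 among the 10. Over all genes, DESeq2 gave one to 4.14%, and edgeR to only 11 genes, with 15859 tested. The values were higher in UE7T-9 SHC4 for 8 genes and lower for 2, with a median log2 fold change of 0.31, against -0.0040 over all genes. With scaling to library size the medians were 0.21 and -0.10, and ZEB2 changed direction. Since these are bulk libraries, a lower share of cells with a transcript and less of it per cell cannot be told apart.

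**Figure D1:**
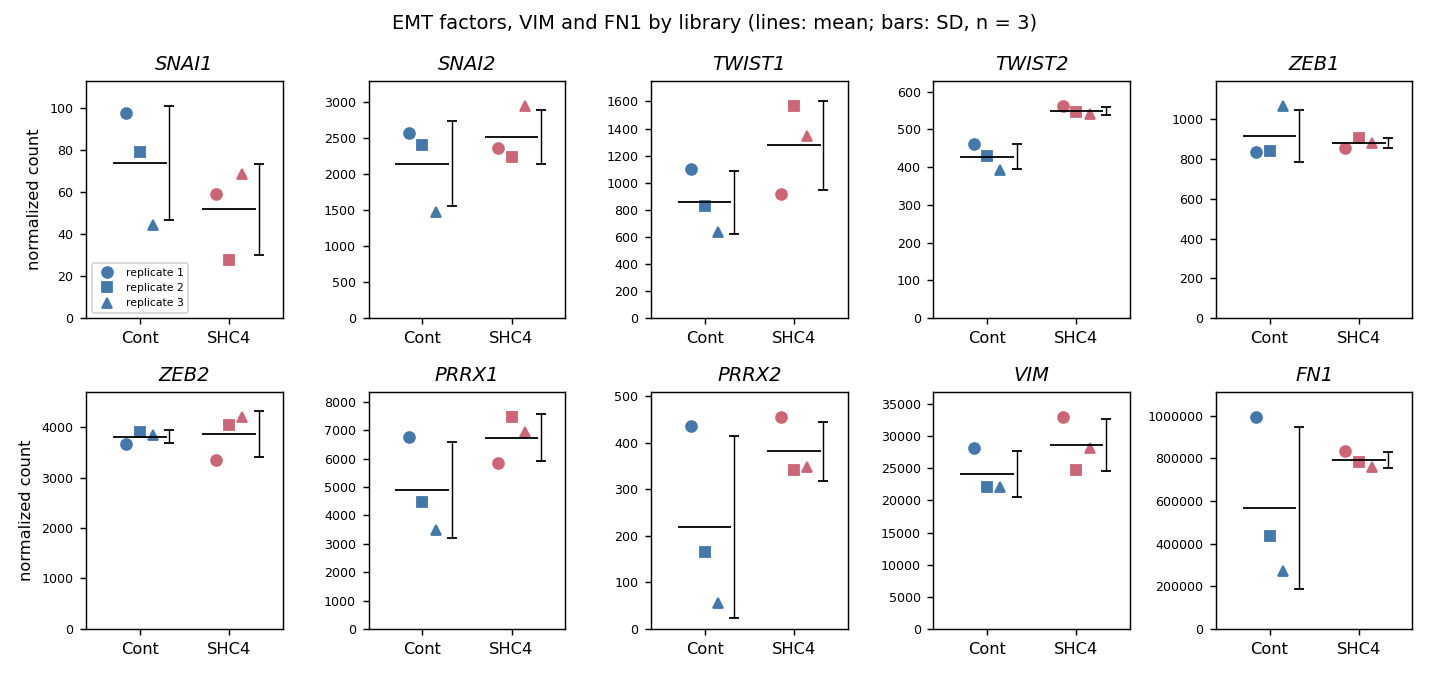
Normalized counts of the 10 genes in each library (vertical axes from 0, 1 panel per gene), with the group mean as a line and the SD (n = 3) as a bar. TWIST2 is the panel in which all 3 UE7T-9 SHC4 points (541 to 561) lie above all UE7T-9 Cont points (393 to 461), and in FN1, PRRX1 and PRRX2 the point of UE7T-9 Cont replicate 1 lies near the UE7T-9 SHC4 points.

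The SNAI factors are zinc finger repressors named for Drosophila snail. Gene positions are those of GENCODE 29 on GRCh38. SNAI1 (chr20:49982999-49988886, plus strand) had 97.5, 78.9 and 44.3 normalized counts in the Cont libraries (replicates 1, 2 and 3) and 58.9, 27.5 and 68.7 in the SHC4 libraries. The highest library was a control and the lowest an SHC4 library, and the groups overlapped. The means were 73.5 ± 27.0 and 51.7 ± 21.5 (SD, n = 3), and limma gave a log2 fold change of -0.53 with a standard error of 0.41 (95% interval -1.46 to 0.40, adjusted p = 0.599). Leaving out each library in turn moved this from -0.85 (without UE7T-9 Cont replicate 3) to -0.13 (without UE7T-9 SHC4 replicate 2). SNAI2, also called Slug, had 2568, 2399 and 1479 normalized counts in the Cont libraries and 2361, 2246 and 2942 in the SHC4 libraries. UE7T-9 Cont replicate 3 was the low library, and the other five lay within a narrower range. For SNAI2, limma gave a log2 fold change of 0.26 (standard error 0.21, 95% interval -0.22 to 0.74, limma adjusted p = 0.618). This became 0.0095 without UE7T-9 Cont replicate 3 and 0.41 without UE7T-9 Cont replicate 1. The ratio of SNAI2 to SNAI1 normalized counts, which does not depend on the scaling of the library, was 26.3, 30.4 and 33.4 in the Cont libraries and 40.1, 81.8 and 42.8 in the SHC4 libraries. These ratios did not overlap between the groups, while those of the TWIST, ZEB and PRRX pairs did. The highest, 81.8, came from the library with the lowest SNAI1 value, 27.5. The share of other gene pairs without overlap was not computed. With 3 libraries a group no exact permutation test can go below p = 0.1, and SNAI1 rested on few reads.

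TWIST1 and TWIST2 are basic helix-loop-helix factors that act in mesoderm and keep osteoblast precursors undifferentiated. TWIST1 (chr7:19020991-19117672, minus strand) had 1100, 828 and 639 normalized counts in the Cont libraries and 920, 1563 and 1347 in the SHC4 libraries. UE7T-9 SHC4 replicate 1 lay below UE7T-9 Cont replicate 1, so the groups overlapped. The log2 fold change of TWIST1 was 0.58 (standard error 0.24, 95% interval 0.044 to 1.11), with an adjusted p of 0.313 by limma, 0.230 by DESeq2 and 0.278 by edgeR. TWIST2 (chr2:238848032-238910543, plus strand) had 461, 430 and 393 normalized counts in the Cont libraries and 561, 546 and 541 in the SHC4 libraries. Every UE7T-9 SHC4 library was above every control. The means of TWIST2 were 428 ± 33.8 and 549 ± 10.05 (SD, n = 3), and the log2 fold change was 0.36 (standard error 0.13, 95% interval 0.077 to 0.65). TWIST2 had the lowest limma p of the 10 genes, at rank 1653 of 23040, and its adjusted p was 0.254 by limma, 0.199 by DESeq2 and 0.197 by edgeR. Its two-sided exact permutation p was 0.1, the lowest that 3 against 3 libraries allow. Without UE7T-9 Cont replicate 1 the log2 fold changes were 0.78 for TWIST1 and 0.42 for TWIST2, with limma adjusted p of 0.0720 and 0.0993. Over all alternatives the adjusted p ranged from 0.0720 to 0.694 for TWIST1 and from 0.0993 to 0.612 for TWIST2. The ratio of TWIST1 to TWIST2 was 1.63 to 2.38 in UE7T-9 Cont and 1.64 to 2.86 in UE7T-9 SHC4 and overlapped.

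ZEB1 and ZEB2 are large zinc finger homeobox repressors, held down in epithelial cells by microRNAs of the miR-200 family. They showed the least difference between the groups. ZEB1 (chr10:31318495-31529814, plus strand) had 837, 842 and 1064 normalized counts in the Cont libraries and 856, 907 and 880 in the SHC4 libraries. UE7T-9 Cont replicate 3 was the high library, and all others lay close together. ZEB1 differed by -0.045 on the log2 scale (standard error 0.13, 95% interval -0.34 to 0.26, limma adjusted p = 0.909), and this turned to 0.069 without UE7T-9 Cont replicate 3. ZEB2 (chr2:144364364-144524583, minus strand) had 3665, 3906 and 3853 normalized counts in the Cont libraries and 3354, 4039 and 4199 in the SHC4 libraries. The controls lay inside the range of the UE7T-9 SHC4 libraries. ZEB2 differed by 0.015 on the log2 scale (standard error 0.13, 95% interval -0.28 to 0.31, limma adjusted p = 0.973), and this was below 0 in 4 of 14 alternatives, at -0.088 with scaling to library size. These intervals exclude a 2-fold change, a log2 fold change of 1, in either direction for ZEB1 and ZEB2. The ratio of ZEB2 to ZEB1 was 3.62 to 4.64 in UE7T-9 Cont and 3.92 to 4.77 in UE7T-9 SHC4.

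PRRX1 and PRRX2 are paired-related homeobox factors, and PRRX1 marks limb and craniofacial mesenchyme and skeletal progenitors. PRRX1 (chr1:170662728-170739419, plus strand) had 6761, 4458 and 3479 normalized counts in the Cont libraries and 5830, 7457 and 6931 in the SHC4 libraries. UE7T-9 Cont replicate 1 lay within the range of UE7T-9 SHC4, and the other controls lay below it. The log2 fold change of PRRX1 was 0.51 (standard error 0.23, 95% interval -0.010 to 1.02, limma adjusted p = 0.355). PRRX2 (chr9:129665641-129722674, plus strand) had 437, 166 and 56.1 normalized counts in the Cont libraries and 455, 341 and 348 in the SHC4 libraries. The pattern was the same, with replicate 1 of the controls among the UE7T-9 SHC4 libraries and the other controls below them. In PRRX2 the fitted log2 fold change was 1.24 (standard error 0.58, 95% interval -0.077 to 2.55, limma adjusted p = 0.375), and DESeq2 gave 0.80 with an adjusted p of 0.681. Without UE7T-9 Cont replicate 1, the log2 fold change was 0.77 for PRRX1 (95% interval 0.39 to 1.14, limma adjusted p = 0.0305) and 1.96 for PRRX2 (95% interval 1.11 to 2.81, limma adjusted p = 0.0194). They moved the other way without UE7T-9 Cont replicate 3, to 0.29 for PRRX1 (limma adjusted p = 0.674) and 0.49 for PRRX2 (limma adjusted p = 0.673). Only PRRX2, without UE7T-9 Cont replicate 1, also passed the fold change threshold, beside 367 genes called higher and 339 called lower over all genes in that fit (3.06% of those tested). Over all alternatives the adjusted p ranged from 0.0305 to 0.698 for PRRX1 and from 0.0194 to 0.681 for PRRX2. The ratio of PRRX1 to PRRX2 was 15.5, 26.9 and 62.1 in the Cont libraries and 12.8, 21.8 and 19.9 in the SHC4 libraries. The ratio was spread more widely among the controls, and the groups overlapped.

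VIM and FN1 are products of the mesenchymal state rather than factors. VIM (chr10:17228259-17237593, plus strand), the intermediate filament protein vimentin, had 28226, 22045 and 22098 normalized counts in the Cont libraries and 32972, 24810 and 28129 in the SHC4 libraries. The groups overlapped, with the highest value in UE7T-9 SHC4 replicate 1. VIM differed by 0.25 on the log2 scale (standard error 0.20, 95% interval -0.21 to 0.71, limma adjusted p = 0.622), and by 0.14 without UE7T-9 SHC4 replicate 1. FN1 (chr2:215360440-215436172, minus strand), the matrix glycoprotein fibronectin, had 994060, 434040 and 271680 normalized counts in the Cont libraries and 834060, 781630 and 760610 in the SHC4 libraries. FN1 was the gene with the most reads in each of the 6 libraries and took 4.26%, 2.03% and 1.35% of the reads of the Cont libraries and 3.60%, 3.39% and 3.27% of those of the SHC4 libraries. The highest value and both lowest values were controls, so the groups overlapped. The log2 fold change of FN1 was 0.69 (standard error 0.71, 95% interval -0.90 to 2.29, limma adjusted p = 0.698), and without UE7T-9 Cont replicate 1 it was 1.20 with an adjusted p of 0.311. It was 0.27 without UE7T-9 Cont replicate 3, the lowest library, with an adjusted p of 0.941. Its adjusted p over all alternatives ranged from 0.311 to 0.941.

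**Figure D2:**
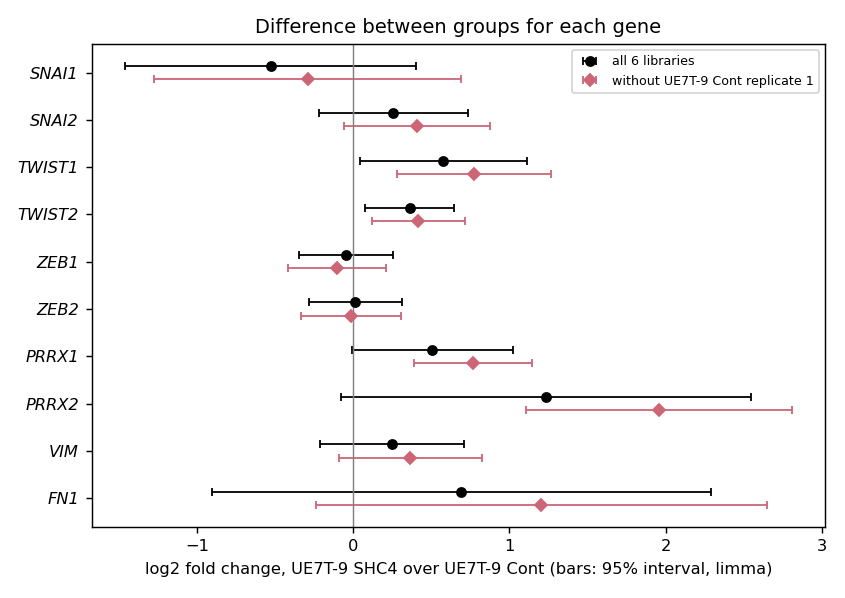
Log2 fold change of UE7T-9 SHC4 over UE7T-9 Cont by limma (horizontal axis) for each gene, with 95% intervals, from all 6 libraries (black circles) and without UE7T-9 Cont replicate 1 (red diamonds). With all libraries only the intervals of TWIST1 (0.044 to 1.11) and TWIST2 (0.077 to 0.65) lie above 0, before any adjustment, and without that replicate those of PRRX1 and PRRX2 do so as well. The fit without UE7T-9 Cont replicate 3, in which PRRX2 fell to 0.49 and FN1 to 0.27, is not drawn.

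The 10 genes differed in how much they varied within a group. The highest UE7T-9 Cont library was 7.79 times the lowest for PRRX2 and 3.66 times for FN1, where the UE7T-9 SHC4 libraries spanned 1.33 and 1.10 times. Among the 12678 genes whose mean reached 50, the SD of log2 values within UE7T-9 Cont was at percentile 99.3 for PRRX2 and 97.4 for FN1, and within UE7T-9 SHC4 at 68.8 and 13.6. SNAI1 was at a high percentile in both groups, 91.3 and 97.8. TWIST2 was at percentile 24.8 within UE7T-9 Cont and 2.39 within UE7T-9 SHC4. ZEB2 was at 5.78 within UE7T-9 Cont but at 53.0 within UE7T-9 SHC4. For 7 of the 10 genes (70%), UE7T-9 Cont replicate 1 was the highest and replicate 3 the lowest of the controls, against 22.1% of all genes tested. The exceptions were ZEB1, ZEB2 and VIM. This order was not particular to the 10 genes. Of the 4 further lists described below, it held for 69.2% of the fibronectin and vimentin partners and 50% of the mesenchymal genes. It held for 38.5% of the other EMT factors and partners and 18.8% of the epithelial genes. THY1, an MSC surface marker, had the same order, with 7742, 2940 and 2286 normalized counts in the Cont libraries, and 7845, 9570 and 7512 in the SHC4 libraries. ENG had this order in the controls too, at 8048, 5872 and 4817, but NT5E, the other MSC marker, was lowest in replicate 1, at 13089, 22364 and 20649. The haematopoietic sum was also highest in UE7T-9 Cont replicate 1, at 418. HLA-DRA made up 262 of it, against 89.5 and 72.8 in the other controls. PTPRC (6.82) and CD79A (10.7) were highest there too, while CD34, ITGAM and CD14 were not. The part of these markers in the results was not tested. The SD of log2 values was larger in UE7T-9 Cont than in UE7T-9 SHC4 for 6 of the 10 (60%) and for 59.4% of all genes tested.

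Levels between genes were compared as normalized counts per kb of annotated exon. In UE7T-9 Cont the means were 32723 for FN1, 4677 for VIM, 633 for SNAI2, 594 for PRRX1, 421 for TWIST1, 228 for TWIST2, 168 for PRRX2, 152 for ZEB2, 106 for ZEB1 and 43.6 for SNAI1. The ranges over the libraries put FN1 above VIM and VIM above every factor. SNAI2, PRRX1 and TWIST1 overlapped one another. PRRX2, at 42.8 to 333 per kb, overlapped TWIST1, TWIST2, ZEB2, ZEB1 and SNAI1, so its place in the order is not settled. No other ranges of the UE7T-9 Cont libraries overlapped. In UE7T-9 SHC4 the order was the same but for PRRX1 (817 per kb) and SNAI2 (742 per kb), whose ranges overlapped there too. TWIST1 overlapped both of them, and TWIST2 overlapped PRRX2, while no other pair did in UE7T-9 SHC4. All 8 factors lay above the floor of 3 reads in each library. Divided by the length of the longest coding transcript instead, ZEB2 moved from place 8 to place 6 in both groups, and PRRX1 stood above SNAI2 in UE7T-9 Cont.

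**Figure D3:**
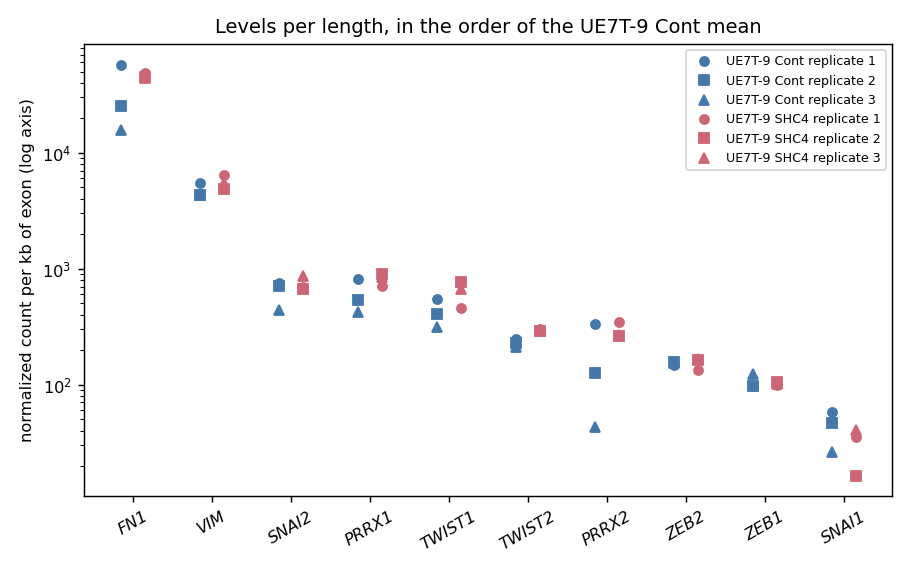
Normalized count per kb of exon (log axis) of each gene in each library, ordered by the UE7T-9 Cont mean. FN1 (15691 to 57410 per kb in UE7T-9 Cont) and VIM lie above all 8 transcription factors, and SNAI1 (16.3 to 57.8 per kb over all libraries) lies at the lower end.

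Reads shared with other genes limit some of these values. Of the 25-base windows in the transcripts of VIM, 24.3% (1260) also occurred in another gene. Its antisense RNA VIM-AS1 held 617 of them, the most of any gene. The shares were 6.86% for ZEB2, 6.03% for TWIST1, 4.38% for ZEB1 and at most 1.69% for the other six. The strand setting of the counting was not given, so reads of a gene and its antisense partner cannot be separated. The normalized counts of the overlapping genes were low next to their neighbours. VIM-AS1 had 10.5 to 31.5 and ZEB1-AS1 had 62.4 to 81.6, while AC003986.2, antisense to TWIST1, had 6.82 to 27.5. ZEB2-AS1 had 0.879 to 7.06, Z97200.1 in PRRX1 had 1.97 to 12.5 and the pseudogene SPTLC1P1 in ZEB1 had 0.832 to 8.85.

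A further 69 genes in 4 lists gave the surroundings of these factors, and 62 of them reached a mean of 1. None was called by limma, and edgeR gave none an adjusted p below 0.05, where it gave one to only 11 genes over all genes. DESeq2 gave 7 of them one (SOX4, HAND2, CLDN1, KRT18, PDGFRB, CALD1 and ITGB3), where 4.14% of all genes it tested had one in either direction. Among 14 other EMT factors and binding partners, 13 were tested, 8 were higher and 5 lower, with a median log2 fold change of 0.038 (-0.065 with scaling to library size). SOX4, an SRY-box factor of progenitor cells, had 885, 610 and 504 normalized counts in the Cont libraries and 847, 1646 and 1379 in the SHC4 libraries. Its groups overlapped through replicate 1 on both sides, and its log2 fold change was 0.94 (adjusted p = 0.195 by limma and 0.0332 by DESeq2). HAND2, a partner of TWIST1 in limb mesenchyme, had 458, 410 and 420 normalized counts in the Cont libraries and 497, 984 and 780 in the SHC4 libraries. Its groups did not overlap, with a log2 fold change of 0.76 (adjusted p = 0.201 by limma and 0.0424 by DESeq2). CTBP2, a co-repressor of ZEB proteins named after its values were seen, was the other tested gene of this list without overlap, with UE7T-9 SHC4 lower and a log2 fold change of -0.11. KLF8, which was not tested, had no reads in the Cont libraries and 0.879, 0.832 and 1.16 normalized counts in the SHC4 libraries, below the floor of 3 reads. At an unadjusted p below 0.05 only SOX4 and HAND2 passed within this list of 13 tested, where 14.4% of all genes did (7.47% higher and 6.96% lower).

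Of 22 epithelial genes, 16 were tested, 5 were higher and 11 lower, with a median log2 fold change of -0.32. This split and median rest partly on genes with few reads. Named for their low values, CLDN3, MARVELD3 and ST14 had, like EPCAM, group means of at most 2.75. Those of CLDN7, ESRP2 and KRT19, named for the same reason, were at most 16.8. CDH1, the target that SNAI and ZEB proteins are best known to repress, had 16.6, 15.3 and 9.84 normalized counts in the Cont libraries and 17.6, 2.50 and 13.97 in the SHC4 libraries. Its groups overlapped at few reads, and its log2 fold change was -0.56 (limma adjusted p = 0.745). EPCAM, an epithelial adhesion molecule, lay at or near the floor of 3 reads everywhere, so a difference was not detectable at this depth. CLDN1, a tight junction claudin, had 171, 333 and 433 normalized counts in the Cont libraries and 68.6, 54.9 and 66.4 in the SHC4 libraries. All UE7T-9 SHC4 libraries lay below all controls, at a log2 fold change of -2.19 (SE 0.32, limma adjusted p = 0.0563, DESeq2 adjusted p = 5.92e-08), and limma called CLDN1 without UE7T-9 Cont replicate 1 (adjusted p = 0.000698). KRT18, a keratin of simple epithelia, had 41.9, 37.7 and 112 normalized counts in the Cont libraries and 21.1, 3.33 and 3.49 in the SHC4 libraries. It also did not overlap, at a log2 fold change of -2.92 (SE 0.69, adjusted p = 0.158 by limma and 0.00804 by DESeq2). In UE7T-9 SHC4 replicates 2 and 3 KRT18 lay at or near the floor of 3 reads, so the size of its change is uncertain. At an unadjusted p below 0.05, 4 of the 16 genes were lower and 2 higher, beside 6.96% and 7.47% of all genes. The others of these were KRT8 and ESRP1, an epithelial splicing factor, which were lower, and DSP (desmoplakin) and MARVELD2 (tricellulin), which were higher, all named after their values were seen. ESRP1 had at most 15.3 normalized counts, and KRT8 had 4.99 and 1.16 in UE7T-9 SHC4 replicates 2 and 3. MARVELD2 was the gene of this list with UE7T-9 SHC4 wholly above.

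Of 20 mesenchymal genes, all tested, 12 were higher and 8 lower, with a median log2 fold change of 0.21. CDH2, the N-cadherin that takes the place of E-cadherin in EMT, had 2447, 1882 and 1547 normalized counts in the Cont libraries and 2441, 1366 and 1630 in the SHC4 libraries. The groups overlapped almost wholly, with a log2 fold change of -0.13 (limma adjusted p = 0.839). PDGFRB, the PDGF receptor of pericytes and fibroblasts, had 4122, 1487 and 1678 normalized counts in the Cont libraries and 6635, 5281 and 5179 in the SHC4 libraries. UE7T-9 SHC4 was wholly above, at a log2 fold change of 1.38 (SE 0.33, adjusted p = 0.162 by limma and 0.0171 by DESeq2), and limma called it without UE7T-9 Cont replicate 1 (adjusted p = 0.000698). CALD1, the actin-binding caldesmon, was also wholly above, with a log2 fold change of 0.64 (adjusted p = 0.240 by limma and 0.0461 by DESeq2). S100A4, named after its values were seen, was the other gene of this list of 20 without overlap, with a log2 fold change of 0.82 (limma adjusted p = 0.224). At an unadjusted p below 0.05, 6 of the 20 mesenchymal genes were higher and 3 lower, beside 7.47% and 6.96% of all genes. Without UE7T-9 Cont replicate 1 the median was 0.49, with 16 of the 20 higher.

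Of 13 partners of fibronectin and vimentin, all tested, 9 were higher and 4 lower, with a median log2 fold change of 0.17. ITGB3, an integrin subunit that binds fibronectin with ITGAV, had 401, 485 and 460 normalized counts in the Cont libraries and 265, 281 and 218 in the SHC4 libraries. UE7T-9 SHC4 was wholly below, at a log2 fold change of -0.82 (SE 0.16, adjusted p = 0.111 by limma and 0.00216 by DESeq2). ITGA5, the subunit of the main fibronectin receptor, also lay wholly below, with a log2 fold change of -0.76 (limma adjusted p = 0.206). LMNA, the nuclear lamin, lay wholly above, with a log2 fold change of 0.44 (limma adjusted p = 0.332); ITGA5 and LMNA were named after their values were seen. At an unadjusted p below 0.05, 4 of the 13 genes were higher and 2 lower, beside 7.47% and 6.96% of all genes. Without UE7T-9 Cont replicate 1 limma called 7 of the 62 genes of the 4 lists, where it called 3.06% of all genes, with CDH11, PDGFRB, SOX4, TGM2 and TNS1 higher and CLDN1 and KRT18 lower. Of these, CDH11, TGM2 and TNS1 were named after their values were seen.

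**Figure D4:**
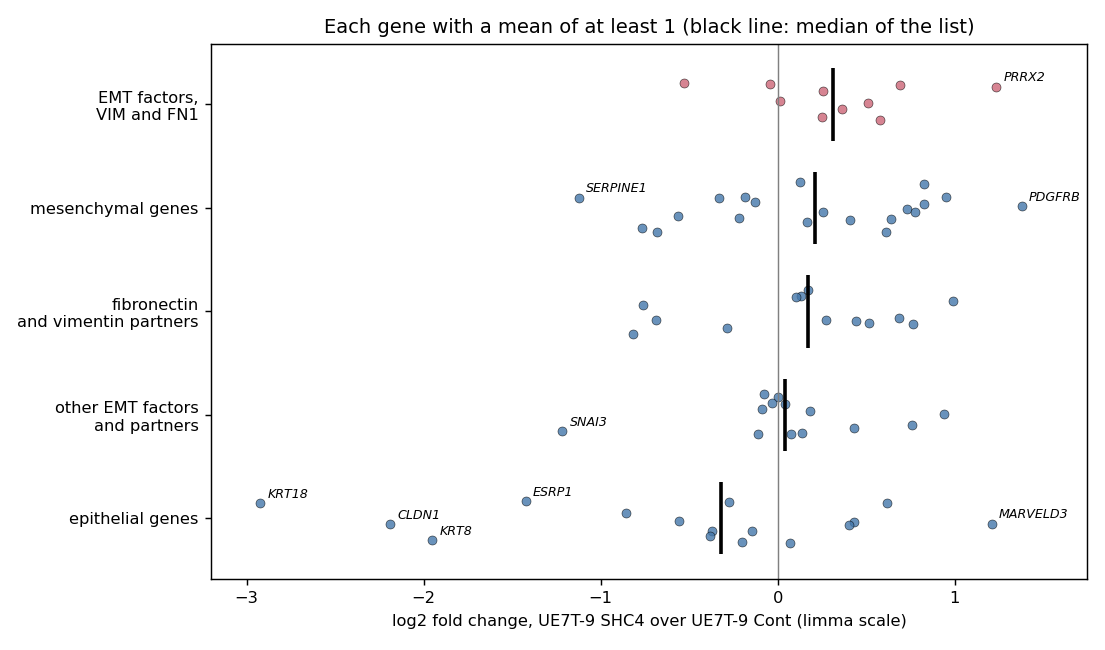
Log2 fold change of UE7T-9 SHC4 over UE7T-9 Cont (horizontal axis) for each tested gene of the 10 (red) and of the 4 other lists (blue), with the list's median as a black line and names for genes beyond 1 or -1. The medians run from 0.31 for the 10 genes to -0.32 for the epithelial genes, where KRT18 and CLDN1 lie farthest below 0. Many of the epithelial genes, with KRT18 in UE7T-9 SHC4 among them, had few reads.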

How the data were processed

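Sequencing of the RNA from both groups (3 libraries each) was done by Novogene on an Illumina NovaSeq system, and samples were grouped by their labels. Per library and gene, the deposited value is a signal, namely the read count divided by a size factor. All values (100%, tolerance 0.01 reads) were whole multiples of 1 read, so counts were recovered by division, and the size factors equalled those of DESeq2. The submitters' processing notes name HISAT2 2.0.5, featureCounts 1.5.0-p3 and DESeq2. The genome build, annotation and strand setting are not given in the sources used here.

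Positions and exon lengths came from GENCODE 29 (GRCh38), matched by identifier. Symbols (27968 of 28181 identifiers, 99.2%) came from a separate list of gene names, also matched by identifier. limma 3.58.1 (lmFit, eBayes with trend, R 4.3.3) was fitted without a block. The study names no model for its test, but DESeq2 at the thresholds used here gave its reported counts, 170 genes higher and 185 lower. Genes with a mean under 1 (5141) were left out. DESeq2 1.42.0 and edgeR 4.0.16 on the recovered reads, other scalings, filters and pseudocounts, a replicate block and leaving out each library were alternatives. The fits were tested on simulated data.

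The 10 genes and the 4 lists were chosen with earlier results of these data known. Named were all 10 genes, listed genes with a DESeq2 adjusted p below 0.05, CDH1, CDH2, EPCAM and overlapping genes with a mean of at least 1. No pair of libraries was a duplicate (mean chi-square per gene 14.5 to 163).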

Additional observations from a re-analysis of the deposited data

How the results depend on the processing

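With 3 libraries per group, 1 library can decide a result. UE7T-9 Cont replicate 1 did so for PRRX1 and PRRX2, which reached log2 fold changes of 0.77 and 1.96 without it. Without UE7T-9 Cont replicate 3 the log2 fold changes were smaller, at 0.29 for PRRX1, 0.49 for PRRX2, 0.27 for FN1 and 0.0095 for SNAI2. Leaving out each library in turn gave 0 to 1 of the 10 genes called higher, 0 to 7 listed partner genes, and over all genes 1 to 367 called higher and 0 to 339 called lower. These counts were 367 and 339 without UE7T-9 Cont replicate 1, 6 and 0 without UE7T-9 Cont replicate 2, 49 and 14 without UE7T-9 SHC4 replicate 1 and 1 and 1 without UE7T-9 SHC4 replicate 2 or 3. None of the 10 was called lower in any alternative, and the higher call was PRRX2 alone. DESeq2 called 3 partner genes (CLDN1, KRT18 and PDGFRB) and over all genes 170 higher and 185 lower. Over all genes, edgeR called 9 higher and 1 lower, scaling to library size 24 and 6, TMM factors 20 and 4, no filter 31 and 9 and pseudocount 0.1 called 11 and 1, against 12 and 2 in the fit reported. CLDN1 was the 1 partner gene called with scaling to library size and with no filter. ZEB2 turned to -0.088 with scaling to library size, to -0.013 without UE7T-9 Cont replicate 1, to -0.021 without UE7T-9 SHC4 replicate 2 and to -0.049 without UE7T-9 SHC4 replicate 3 (range over left-out libraries -0.049 to 0.11), and ZEB1 to 0.069 (range -0.10 to 0.069) without UE7T-9 Cont replicate 3; the cause was not tested. The other eight genes kept their direction in all 14 alternatives.

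The deviations of same-numbered libraries had correlations of 0.148, 0.0130 and -0.00696 across genes (replicates 1, 2 and 3). For libraries with unlike numbers they ran from -0.108 to 0.0992. Replicates 2 and 3 thus showed little common deviation, while the replicate 1 libraries had the largest value. Whether the replicate 1 libraries shared a batch is not given in the labels and was not tested. With the replicate block, none of the 10 genes, 1 partner gene (CLDN1) and over all genes 25 higher and 14 lower were called.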
